A study of Mus musculus with 12 samples.

Results

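The 35 genes described here mark lymphocytes and innate lymphoid cells in inguinal white adipose tissue (iWAT), the subcutaneous pad in which beige adipocytes form upon cold. They were taken by symbol, out of 23420 genes counted, and all 35 were in the table. There are 18 genes of T cells, 8 of B cells, 5 of natural killer (NK) cells and 3 of group 2 innate lymphoid cells (ILC2). The remaining gene, Ltb, encodes lymphotoxin beta and is made by T and B cells alike. Of the 35 genes, 34 passed edgeR's filter on low counts, and Areg, at 0 to 10 counts per mouse, did not.

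RNA of whole iWAT came from 12 male C57BL/6 mice aged 10 weeks, and each of 4 groups held 3 mice. The WT genotype was HIF2a loxP/loxP without Cre, whereas HIF2α AKO mice carried the same alleles together with Adipoq-Cre, so the transgene and the loss of HIF2α cannot be told apart. Adipoq-Cre is active in adipocytes, so lymphocytes are not the cells in which this model deletes the gene. Mice of either genotype were kept at thermoneutrality (TN, 30 °C) for 1 week or in cold (4 to 6 °C) for 3 days. Library by library, values are given in the order of replicates 1, 2 and 3.

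T cells recognise antigen with a receptor whose signals pass through the CD3 chains, and B cells with a membrane antibody whose signals pass through CD79. NK cells kill target cells with granzymes and perforin, and ILC2s respond to interleukin 33 and secrete type 2 cytokines. In subcutaneous fat, ILC2s and regulatory T cells have been described in relation to beige adipocytes. The inguinal pad also encloses a lymph node, in which B cells fill follicles, T cells fill the surrounding cortex and naive lymphocytes enter through high endothelial venules. Because a dissection may include this node, T, B, NK and ILC2 genes were set side by side in each mouse, together with genes of lymph node stroma.

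Each mouse gave 22368316 to 35204631 counts assigned to genes. Levels are given as CPM (counts scaled to a common library total) after TMM scaling, and adjusted p-values come from edgeR's quasi-likelihood test over the 15306 genes that passed the filter, with a limit of 0.05. Ucp1 stood at 0.204 to 3.85 CPM in TN mice and 2171 to 5896 CPM in cold mice. Epas1, which encodes HIF2α, showed no lower level under the HIF2α AKO label, with 826 ± 139 CPM (SD, n = 3) against 627 ± 101 in WT mice upon cold and 348 ± 53.8 against 360.1 ± 76.8 at TN, and genotypes are given as labelled. Gene counts also hold reads from exons and cells that the deletion spares. Transcripts of other tissues stood out in 3 libraries. A list of 6 epithelial genes summed to 199.98 CPM in TN WT replicate 3 and to 2.95 to 10.3 CPM in the other 11 libraries. A list of 10 skeletal muscle genes summed to 1525 CPM in TN HIF2α AKO replicate 2, to 1245 CPM in cold HIF2α AKO replicate 1 and to at most 91.4 CPM elsewhere. Results that rest on these libraries are given with and without them.

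B cell genes led the set per length. Per kilobase of summed exon length, Cd79a stood at 166 CPM (mean over 12 mice, range 85.2 to 259.8) and Cd79b at 136 CPM (60.7 to 232), and both encode the signalling chains of the B cell receptor. Ltb followed at 84.4, and Cd22, an inhibitory receptor of B cells, at 63.1 CPM per kilobase. Within each of the 12 mice Cd79a was above Cd79b, Cd79b above Ltb and Ltb above Cd22, although their ranges across mice overlapped. The highest T cell genes were Tcf7, a transcription factor of naive and memory T cells, at 58.9 CPM per kilobase, and Lck, the kinase that starts receptor signalling, at 42.7. Fcer2a, the low-affinity IgE receptor of follicular B cells, lay between them at 54.0. Neighbours in the order from Cd22 down to Il1rl1 also had overlapping ranges. Ccr7 was above Cd4, Cd8a above Cd3d, Zap70 above Cd3e and Cd3e above Cd5 in each of the 12 mice. The other neighbours in this stretch changed places between mice.

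NK genes lay among the T cell genes on the same scale of CPM per kilobase, and ILC2 genes were the lowest of the set. Nkg7, a granule protein of cytotoxic cells, stood at 19.3, Il2rb, a cytokine receptor chain, at 16.6 and Gzma, which encodes granzyme A, at 6.21. Gata3, the transcription factor of T helper 2 cells and ILC2s, stood at 2.32 and Il1rl1, the interleukin 33 receptor ST2, at 1.23 CPM per kilobase. Areg, a growth factor secreted by ILC2s and regulatory T cells, had 5, 2 and 10 counts in TN WT, 3, 3 and 1 in TN HIF2α AKO, 1, 1 and 0 in cold WT and 0, 2 and 4 in cold HIF2α AKO mice. Its highest mouse was TN WT replicate 3, the library with epithelial transcripts, and its level was under that of Il1rl1 in 12 of 12 mice. Cold WT mice lay below TN WT mice and the HIF2α AKO groups overlapped, at counts too low for the test's filter. A count of 0 allows up to 3 counts. Exons of 3 genes in the set overlap other counted genes, namely Pax5 with 5730488B01Rik, Foxp3 with Ccdc22 and Ppp1r3f, and Gata3 with 9230102O04Rik. The strand setting of the counting is not given in the sources used here, so reads shared by these pairs cannot be assigned.

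Upon cold, lymphocyte genes were lower throughout the set. In WT mice the fitted log2 fold change was negative for 34 of 34 genes tested, with a median of -0.62 and a range from -1.30 to -0.28, whereas the median over all genes tested was -0.03. Of the 34, 8 fell with adjusted p under 0.05, or 23.5%, against 5.68% of all genes tested. These 8 were Cd28, Ms4a1, Cr2, Fcer2a, Gzma, Nkg7, Klrd1 and Il1rl1. At an unadjusted p under 0.05 there were 22. For 27 genes every cold mouse lay below every TN mouse, whereas 19.3% of all genes tested had no overlap in that direction.

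The number of calls in WT mice depended on single libraries. It was 0 without cold WT replicate 3, with 9 genes at an unadjusted p under 0.05 and a smallest adjusted p of 0.0523. Without cold WT replicate 1 it was 4 (Cr2, Fcer2a, Nkg7 and Il1rl1), and without TN WT replicate 1 it was 2 (Cr2 and Fcer2a). Without TN WT replicate 2 it was also 2, namely Cr2 and a newly called Gata3, and without cold WT replicate 2 it was 12. Calls over all genes moved as well, with 1.01%, 3.29%, 2.43%, 1.496% and 7.03% of all genes called lower in these fits, in that order. The fitted direction was lower for 34 of 34 genes in each of them.

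In HIF2α AKO mice the fitted change was likewise negative for 34 of 34 genes, with a median of -0.61 (range -1.59 to -0.35) beside -0.05 over all genes tested. The test called 10 genes lower, or 29.4%, against 11.5% of all genes tested. They comprised the 8 genes called in WT mice together with Cd22 and Pax5, so the overlap was 100% of the calls in WT and 80% of those in HIF2α AKO mice. At an unadjusted p under 0.05 there were 22. No overlap between cold and TN mice was seen for 13 genes, whereas 25.6% of all genes tested had none in that direction. Without cold HIF2α AKO replicate 1 the number of calls was 2 (Klrd1 and Il1rl1), without TN HIF2α AKO replicate 1 it was 3 (Gzma, Klrd1 and Il1rl1) and without TN HIF2α AKO replicate 3 it was 6. Of all genes tested, the shares called lower were then 2.03%, 2.47% and 5.34% in these fits, so the loss of calls was not particular to the set. The number was 25 without TN HIF2α AKO replicate 2, 22 without cold HIF2α AKO replicate 3 and 16 without cold WT replicate 3, which enters the estimate of the spread, where 11.3%, 9.83% and 14.4% of all genes were called lower. Without the 3 libraries with epithelial or muscle transcripts the count was 13 in WT and 5 in HIF2α AKO mice (7.15% and 2.40% of all genes), again with 34 of 34 fitted lower in either genotype.

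**Figure D1:**
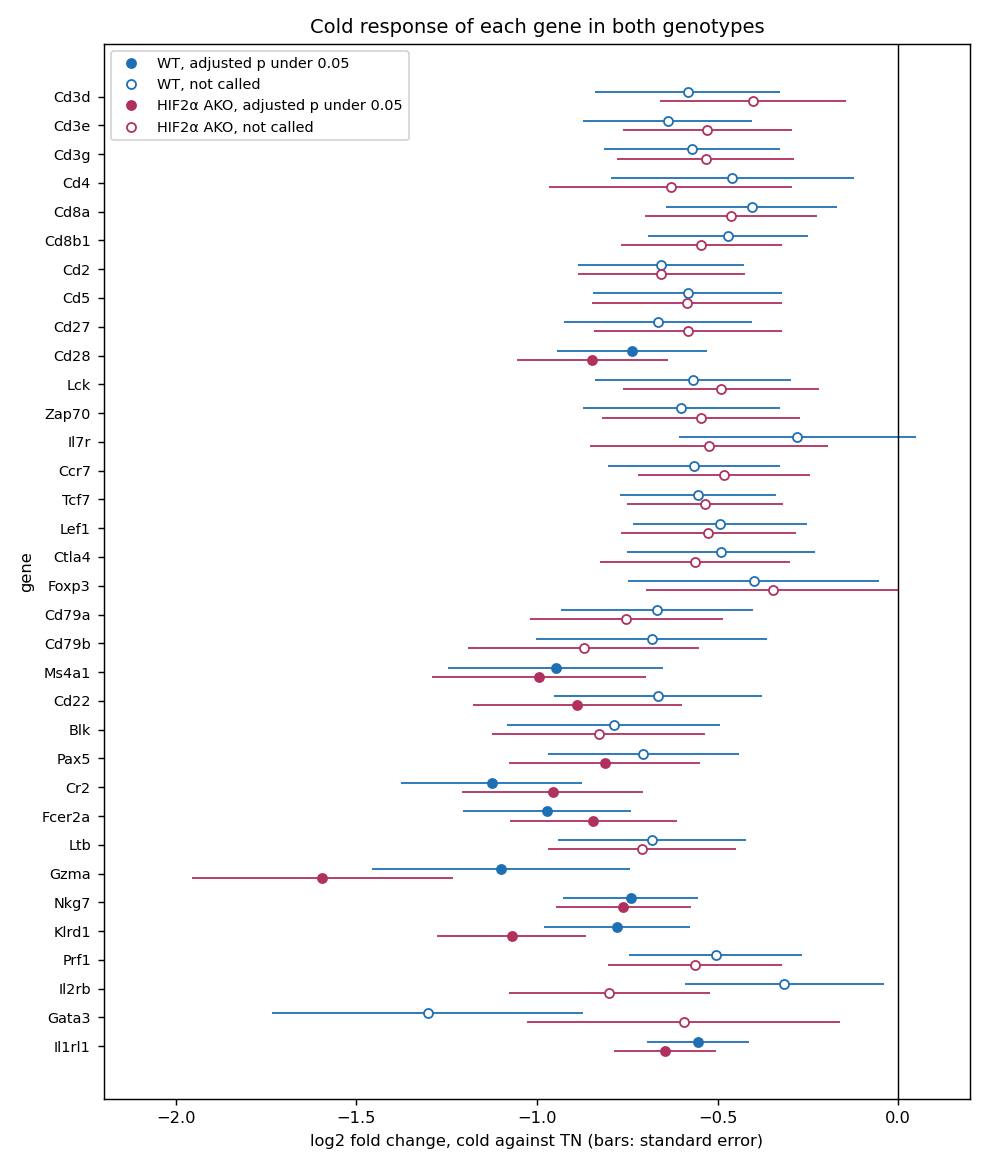
Log2 fold change of each of the 34 tested genes for cold against TN (horizontal axis) in WT and HIF2α AKO mice, with bars for the standard error and filled points for adjusted p under 0.05 (edgeR). Every point lies below 0, with the lowest at -1.59 (Gzma in HIF2α AKO mice).

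Summed over each class, the levels were lower in cold mice. CPM are relative levels. In these bulk libraries fewer cells of a type, less RNA per cell and more RNA from other cells cannot be told apart. The 18 T cell genes summed to 1371, 1420.2 and 1276 CPM in TN WT and 904, 1165 and 750.1 CPM in cold WT mice, so every cold WT mouse lay below every TN WT mouse, and the cold mean was 69.3% of the TN mean. In HIF2α AKO mice the T cell sums were 1322, 846 and 1370.3 CPM at TN and 595, 709 and 1126 CPM in cold. These groups overlapped, with TN replicate 2 low and cold replicate 3 high within their groups, and the cold mean was 68.7% of the TN mean. The difference in mean log2 sums was -0.56, and -0.37 without cold HIF2α AKO replicate 1.

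The 8 B cell genes summed to 1561, 2028 and 1218 CPM in TN WT and 1082, 1107 and 606 CPM in cold WT mice. HIF2α AKO mice had 1977, 1263 and 1521 CPM at TN and 679, 1038 and 897 CPM in cold. Cold mice lay below TN mice without overlap in both genotypes, at 58.1% and 54.9% of the TN mean. The difference in mean log2 sums in WT mice was -0.80, and -0.52 without cold WT replicate 3. The 5 NK genes summed to 139 ± 14.8 CPM in TN WT and 99.95 ± 16.9 in cold WT mice (mean ± SD, n = 3), without overlap. HIF2α AKO mice had 146 ± 43.7 CPM at TN and 81.5 ± 24.6 in cold, and these groups overlapped. The 3 ILC2 genes summed to 21.3, 19.4 and 38.03 CPM in TN WT and 14.0, 15.7 and 9.93 CPM in cold WT mice, and the high value in TN WT replicate 3 came from Gata3. HIF2α AKO mice had 21.2, 17.0 and 19.8 CPM at TN and 12.5, 11.7 and 13.5 CPM in cold, and cold mice lay below TN mice in both genotypes. No p is given for these sums, because the genes were grouped by class with earlier results known.

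**Figure D2:**
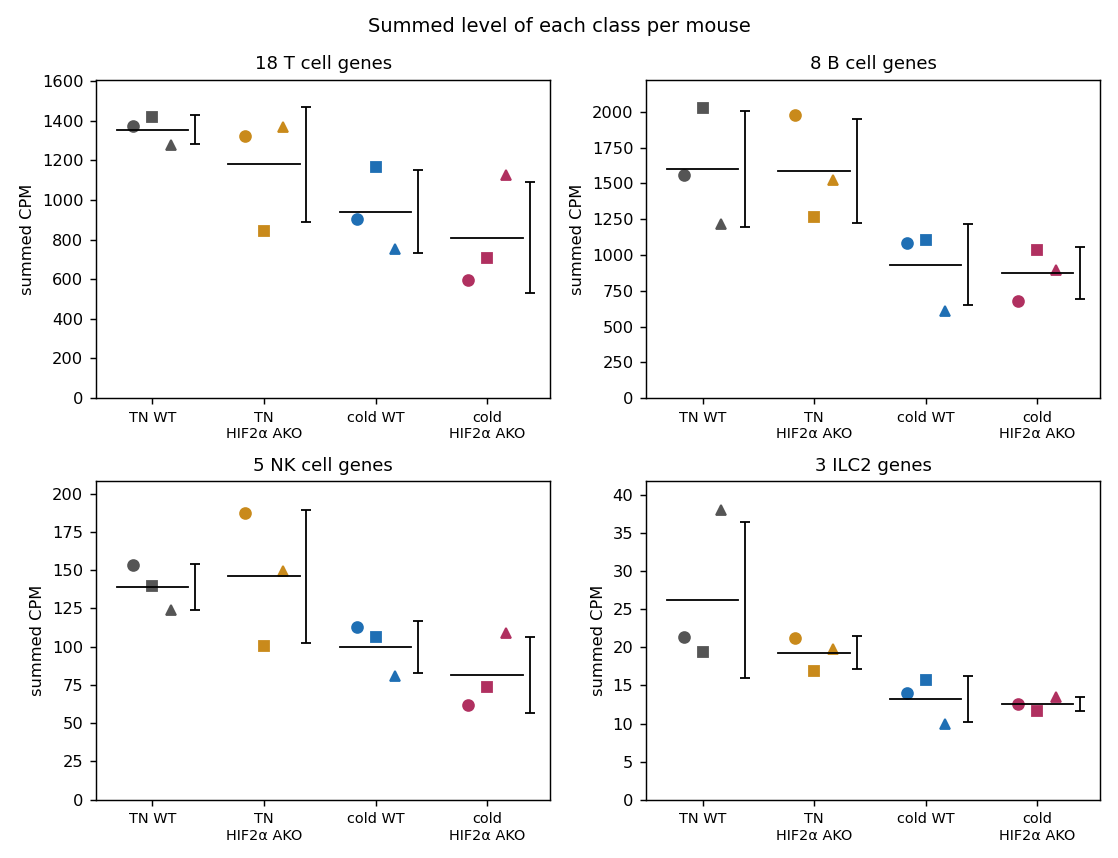
Summed TMM-scaled CPM of the T, B, NK and ILC2 genes in each mouse (vertical axes from 0), with a circle, square and triangle for replicates 1, 2 and 3, horizontal lines for group means and bars for the SD of 3 mice. The B cell sum is 606 to 2028 CPM across mice and the T cell sum 595 to 1420.2 CPM.

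The proportions of the classes varied between mice of a group. The B cell sum was 1.14, 1.43 and 0.955 times the T cell sum in TN WT, 1.495, 1.49 and 1.11 times in TN HIF2α AKO, 1.20, 0.950 and 0.808 times in cold WT and 1.14, 1.46 and 0.797 times in cold HIF2α AKO mice. All groups overlapped in this ratio, and its lowest value was in cold HIF2α AKO replicate 3 and its highest in TN HIF2α AKO replicate 1. The ratio is one of summed CPM and not of cells. NK genes summed to 11.2, 9.82 and 9.70% of the T cell sum in TN WT, 12.5, 9.14 and 10.8% in cold WT, 14.2, 11.9 and 10.9% in TN HIF2α AKO and 10.4, 10.4 and 9.69% in cold HIF2α AKO mice. This share overlapped between cold and TN in WT mice and was lower without overlap in cold HIF2α AKO mice. Cd8a stood at 0.574 to 0.967 times the CPM of Cd4, and Foxp3 at 24.2 to 40.9% of the CPM of Cd3e, and cold and TN mice overlapped in both.

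Transcripts of lymph node stroma were present in every library. Glycam1, a mucin of high endothelial venules that lactating mammary gland also makes, stood at 121, 166 and 91.8 CPM in TN WT, 137, 78.1 and 134 in TN HIF2α AKO, 138, 146 and 114 in cold WT and 68.3, 79.9 and 101 in cold HIF2α AKO mice. No mouse was without it. Cxcl13, the chemokine that draws B cells into follicles, ranged from 55.2 to 159 CPM, and Ccl19, a chemokine of the T cell zone, from 46.2 to 109 CPM. Ccl21a had 0 counts in all libraries. It has near-identical copies, and reads that align to several places were kept out of the gene counts. The 13 genes of this list summed to 671, 782 and 554 CPM in TN WT and 629, 612 and 450.1 CPM in cold WT mice, which overlapped. HIF2α AKO mice had 799.6, 564 and 687 CPM at TN and 398, 542 and 529.7 CPM in cold, which did not overlap.

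Among the stromal genes the log2 fold change of Glycam1 upon cold was 0.07 ± 0.25 in WT (adjusted p = 0.852) and -0.48 ± 0.25 in HIF2α AKO mice (adjusted p = 0.167). Cxcl13 had -0.38 ± 0.35 and -0.57 ± 0.35 (adjusted p = 0.426 and 0.230) and Ccl19 -0.57 ± 0.32 and -0.19 ± 0.32 (adjusted p = 0.203 and 0.676). Over the 12 list genes tested the median was -0.42 in WT and -0.47 in HIF2α AKO mice, beside -0.62 and -0.61 over the lymphocyte genes. Ltbr, the lymphotoxin beta receptor, which many stromal cells also carry, rose in both genotypes (0.59 ± 0.14, adjusted p = 0.0157, and 0.53 ± 0.14, adjusted p = 0.0201). It was the 1 gene of the list called higher. In HIF2α AKO mice 1 of the 12 genes was called lower, at an adjusted p of 0.0170 (edgeR), and in WT mice 0. Of all genes tested, 5.68% in WT and 11.5% in HIF2α AKO mice were called lower. Those called higher were 2389 and 2381 of 15306. The part of lymph node tissue in the cold response was not tested.

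**Figure D3:**
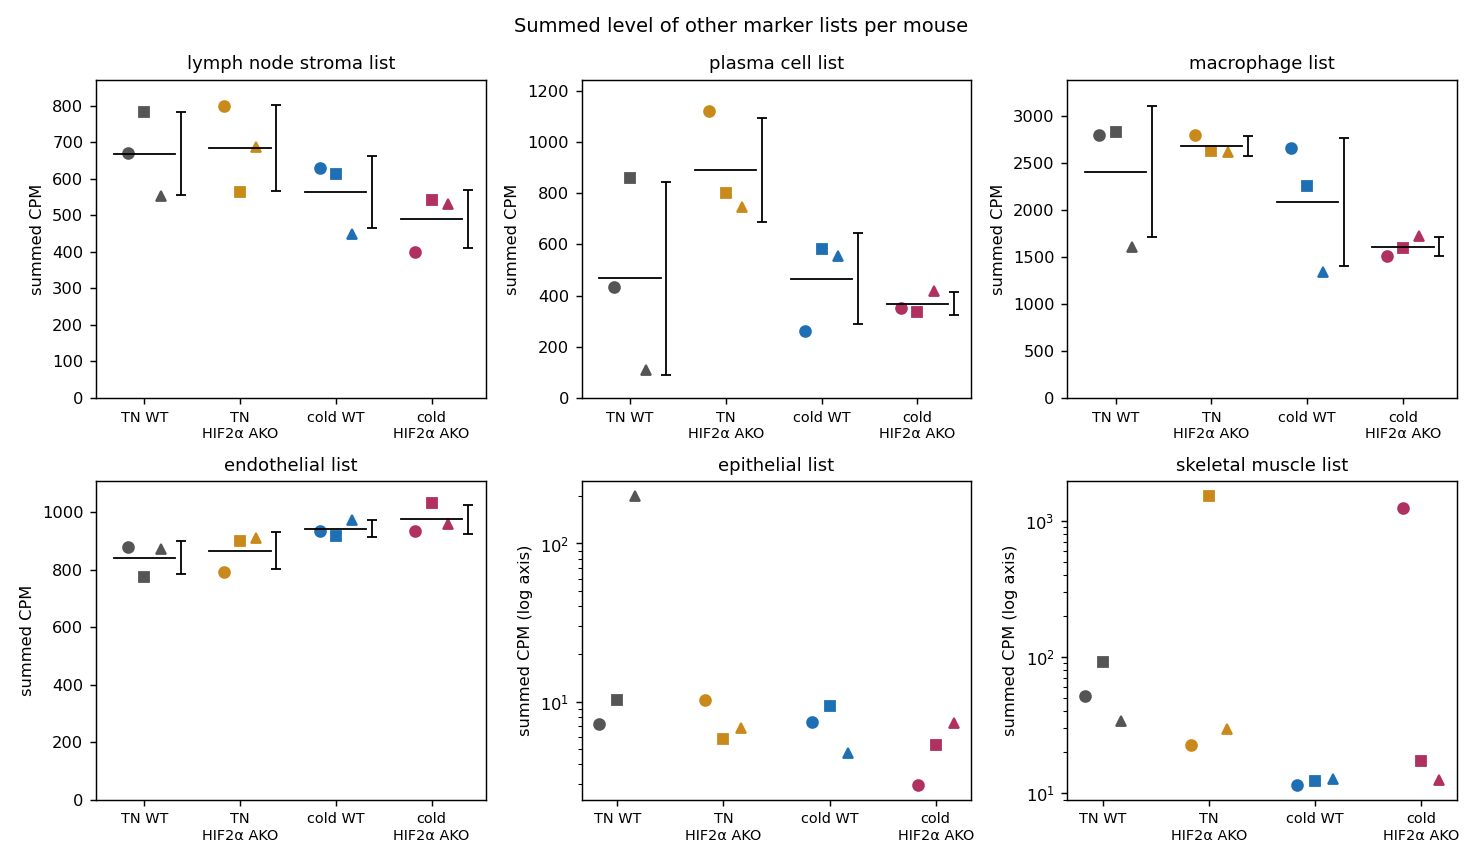
Summed TMM-scaled CPM per mouse of 6 marker lists, with linear axes from 0 for lymph node stroma, plasma cells, macrophages and endothelium, and log axes for epithelium and skeletal muscle. Lines and bars in the linear panels are the mean and SD of 3 mice. Lymph node stroma lies at 398 to 799.6 CPM, and single libraries stand apart in the epithelial (199.98 CPM) and muscle panels (1525 and 1245 CPM).

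The genes of the CD3 gamma, delta and epsilon chains of the T cell receptor complex are neighbours in the genome. Cd3g, Cd3d and Cd3e lie side by side on chromosome 9, with 1354 bases between Cd3g and Cd3d and 11400 between Cd3d and Cd3e. RefSeq promoters (GRCm38.p6, 250 bases before to 50 after the start) were found for 25 of the 35 genes. Those of the CD3 chains are printed 5′ to 3′ because these genes define T cells and none of them passed the test. That of Cd79a is printed as the highest gene of the set per kilobase. Capitals mark matches, on either strand, to AGGAAG (ETS factors), TGTGGT (RUNX), CTTTGA (TCF/LEF) and CAGGTG (an E-box). The windows are chr9:44980382-44980681 on the minus strand, chr9:44981536-44981835 on the plus strand, chr9:45009562-45009861 on the minus strand and chr7:24897247-24897546 on the plus strand.
Cd3g: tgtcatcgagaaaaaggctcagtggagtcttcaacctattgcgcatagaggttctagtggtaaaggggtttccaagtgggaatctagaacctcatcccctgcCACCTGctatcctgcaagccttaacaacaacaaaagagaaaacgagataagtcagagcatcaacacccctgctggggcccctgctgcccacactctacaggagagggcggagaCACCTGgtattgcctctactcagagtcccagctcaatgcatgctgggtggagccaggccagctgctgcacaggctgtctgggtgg
Cd3d: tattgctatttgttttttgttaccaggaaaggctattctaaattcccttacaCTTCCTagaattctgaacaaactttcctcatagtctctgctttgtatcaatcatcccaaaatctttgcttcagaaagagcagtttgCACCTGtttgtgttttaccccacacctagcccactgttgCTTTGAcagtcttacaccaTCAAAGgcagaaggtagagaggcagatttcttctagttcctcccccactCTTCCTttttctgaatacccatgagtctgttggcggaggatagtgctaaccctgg
Cd3e: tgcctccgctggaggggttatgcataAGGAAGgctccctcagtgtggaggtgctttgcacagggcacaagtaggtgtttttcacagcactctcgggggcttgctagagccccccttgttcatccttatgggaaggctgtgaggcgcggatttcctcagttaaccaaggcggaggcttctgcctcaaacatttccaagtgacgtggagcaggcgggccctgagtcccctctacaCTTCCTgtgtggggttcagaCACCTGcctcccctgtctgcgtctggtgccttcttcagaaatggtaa
Cd79a: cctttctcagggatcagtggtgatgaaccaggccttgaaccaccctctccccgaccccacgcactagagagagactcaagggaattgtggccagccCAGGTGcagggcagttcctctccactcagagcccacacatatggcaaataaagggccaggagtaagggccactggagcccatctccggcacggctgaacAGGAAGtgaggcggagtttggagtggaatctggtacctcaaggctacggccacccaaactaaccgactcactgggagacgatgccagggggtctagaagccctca

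The E-box letters occurred in each of the printed windows, and in 14 of the 25 promoters against 20.2% of the 32851 promoters in the reference. ETS letters were found in 13 of 25 against 35.4%, RUNX letters in 6 against 16.8% and TCF/LEF letters in 4 against 16.0%. Among the printed windows, Cd3d alone held the TCF/LEF letters, on both strands. A match describes letters in a window and not a bound site.

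Cd3d, a signalling chain of the T cell receptor complex, stood at 47.0, 49.1 and 47.8 CPM in TN WT, 30.2, 40.3 and 25.6 in cold WT, 46.3, 28.4 and 44.9 in TN HIF2α AKO and 23.0, 24.3 and 42.9 CPM in cold HIF2α AKO mice. Cold WT mice lay below TN WT mice, and the HIF2α AKO groups overlapped. Its log2 fold change upon cold was -0.58 ± 0.26 in WT (SE, adjusted p = 0.119) and -0.40 ± 0.26 in HIF2α AKO mice (adjusted p = 0.251). Cd3e and Cd3g had -0.64 ± 0.23 and -0.57 ± 0.24 in WT mice (adjusted p = 0.0724 and 0.109), and none of the CD3 genes was called in either genotype. Lck, the proximal kinase, stood at 151, 169 and 161 CPM in TN WT, 101, 136 and 86.9 in cold WT, 149.6, 96.9 and 159 in TN HIF2α AKO and 69.4, 78.3 and 141 CPM in cold HIF2α AKO mice, with -0.57 ± 0.27 in WT (adjusted p = 0.145) and -0.49 ± 0.27 in HIF2α AKO mice (adjusted p = 0.187). Zap70, the kinase that follows Lck, had -0.60 ± 0.27 and -0.55 ± 0.27 (adjusted p = 0.129 and 0.149).

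Co-receptors divide T cells into helper and cytotoxic lineages. Cd4, the co-receptor of helper T cells, stood at 179, 177 and 110.4 CPM in TN WT, 113, 149.7 and 75.4 in cold WT, 174, 104 and 167 in TN HIF2α AKO and 66.3, 78.8 and 142 CPM in cold HIF2α AKO mice. Cold and TN mice overlapped in both genotypes, and TN WT replicate 3 and cold WT replicate 3 were low within their groups. Upon cold the log2 fold change of Cd4 was -0.46 ± 0.34 in WT (adjusted p = 0.322) and -0.63 ± 0.34 in HIF2α AKO mice (adjusted p = 0.173). Cd8a stood at 107, 102 and 99.99 CPM in TN WT, 69.4, 91.3 and 72.9 in cold WT, 100.004, 60.5 and 109.6 in TN HIF2α AKO and 51.7, 55.5 and 88.6 CPM in cold HIF2α AKO mice, so the WT groups did not overlap while the HIF2α AKO groups did. Its log2 fold change was -0.41 ± 0.24 in WT (adjusted p = 0.221) and -0.46 ± 0.24 in HIF2α AKO mice (adjusted p = 0.157). Cd8b1, the partner chain of CD8, had -0.47 ± 0.22 and -0.55 ± 0.22 (adjusted p = 0.139 and 0.0871).

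Cd28, which supplies the co-stimulatory signal for T cell activation, was the only gene of the 18 T cell genes that passed the test, and it did so in both genotypes. The share called was thus near that of all genes tested in WT (5.68%) and below that in HIF2α AKO mice (11.5%). It stood at 37.0, 41.0 and 31.6 CPM in TN WT, 18.6, 27.7 and 19.4 in cold WT, 38.9, 25.0 and 33.7 in TN HIF2α AKO and 14.4, 18.4 and 21.4 CPM in cold HIF2α AKO mice, with cold mice below TN mice in either genotype. The level was 1.67-fold lower in WT mice (-0.74 ± 0.21, adjusted p = 0.0292) and 1.80-fold lower in HIF2α AKO mice (-0.85 ± 0.21, adjusted p = 0.0151). The call in WT was lost without TN WT replicate 1 or 2 or cold WT replicate 1 or 3, with adjusted p between 0.00505 and 0.112 over 20 alternatives, and that in HIF2α AKO mice without replicate 1 of TN or of cold. With the replicate number as a block the WT call of Cd28 was also lost. Ctla4, an inhibitory receptor that binds the same ligands, had -0.49 ± 0.26 and -0.56 ± 0.26 (adjusted p = 0.183 and 0.126). The fitted changes of Cd2, Cd5 and Cd27, surface receptors of T cells, were from -0.66 to -0.58 in WT mice (smallest adjusted p = 0.0634, Cd2). HIF2α AKO mice had -0.66 to -0.58 (smallest adjusted p = 0.0555, Cd2).

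Tcf7, Lef1, Ccr7 and Il7r are genes of naive and memory T cells, and none of them was called. Tcf7 stood at 199, 210.3 and 184 CPM in TN WT, 120.2, 167 and 117 in cold WT, 184, 132 and 192 in TN HIF2α AKO and 86.4, 111 and 153 CPM in cold HIF2α AKO mice. WT groups did not overlap, and in HIF2α AKO mice cold replicate 3 exceeded TN replicate 2. For Tcf7 the cold response was -0.55 ± 0.22 on the log2 scale in WT (SE, adjusted p = 0.0859) and -0.54 ± 0.22 in HIF2α AKO mice (adjusted p = 0.0846). Lef1, the related factor, had -0.49 ± 0.24 and -0.53 ± 0.24 (adjusted p = 0.152 and 0.121). Ccr7, which guides naive T cells into lymph nodes, stood at 101, 104 and 106 CPM in TN WT, 74.9, 83.6 and 52.1 in cold WT, 96.0, 62.9 and 98.7 in TN HIF2α AKO and 44.2, 59.3 and 80.8 CPM in cold HIF2α AKO mice, with -0.56 ± 0.24 in WT (adjusted p = 0.106) and -0.48 ± 0.24 in HIF2α AKO mice (adjusted p = 0.144). Il7r, the interleukin 7 receptor, had the smallest fitted change of the set in WT mice, -0.28 ± 0.33 (adjusted p = 0.541), and -0.52 ± 0.33 in HIF2α AKO mice (adjusted p = 0.243).

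Foxp3, the transcription factor of regulatory T cells, was low and variable. It stood at 18.7, 19.2 and 15.4 CPM in TN WT, 14.1, 18.3 and 7.92 in cold WT, 14.9, 11.3 and 19.4 in TN HIF2α AKO and 7.55, 10.0 and 18.2 CPM in cold HIF2α AKO mice, and cold replicate 3 was the lowest WT mouse and cold replicate 2 close to the TN mice. The groups overlapped in both genotypes. For Foxp3 the cold response was -0.40 ± 0.35 on the log2 scale in WT (SE, adjusted p = 0.404) and -0.35 ± 0.35 in HIF2α AKO mice (adjusted p = 0.468).

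Of the 8 B cell genes, 3 fell in WT and 5 in HIF2α AKO mice, with class medians of -0.75 and -0.86 beside -0.57 and -0.53 for T cell genes. Of all genes tested, 5.68% and 11.5% were called lower. The difference between the classes was not tested. Cr2, the complement receptor of mature B cells and follicular dendritic cells, stood at 127, 199.8 and 126 CPM in TN WT, 68.5, 84.6 and 54.3 in cold WT, 181, 118 and 117 in TN HIF2α AKO and 57.8, 86.7 and 69.7 CPM in cold HIF2α AKO mice. Every cold mouse lay below every TN mouse. The level was 2.18-fold lower in WT (-1.12 ± 0.25, adjusted p = 0.0112) and 1.94-fold lower in HIF2α AKO mice (-0.96 ± 0.25, adjusted p = 0.0190). Fcer2a stood at 236, 268 and 189 CPM in TN WT, 114, 156 and 83.0 in cold WT, 229.6, 173 and 214 in TN HIF2α AKO and 89.2, 135 and 119 CPM in cold HIF2α AKO mice, again without overlap. Its level was 1.96-fold lower in WT (-0.97 ± 0.23, adjusted p = 0.0151) and 1.79-fold lower in HIF2α AKO mice (-0.84 ± 0.23, adjusted p = 0.0232). Ms4a1, which encodes CD20, stood at 138, 219.7 and 116 CPM in TN WT, 90.5, 96.2 and 58.9 in cold WT, 218, 136 and 140.2 in TN HIF2α AKO and 63.9, 109 and 75.2 CPM in cold HIF2α AKO mice, with TN WT replicate 2 and TN HIF2α AKO replicate 1 above the others of their groups. It was 1.93-fold lower in WT (adjusted p = 0.0437) and 1.99-fold lower in HIF2α AKO mice (adjusted p = 0.0321). Of the WT calls, Cr2 was lost without cold WT replicate 3, Fcer2a also without TN WT replicate 2, and Ms4a1 without any of TN WT replicates 1 and 2, cold WT replicates 1 and 3 and replicate 3 of either HIF2α AKO group. Of the HIF2α AKO calls, Cr2 was lost without replicate 1 of TN or cold, Fcer2a also without TN replicate 3, and Ms4a1 without replicate 1 or 3 of either group. Without the 3 libraries with epithelial or muscle transcripts, none of the 5 B cell calls in HIF2α AKO mice was kept (Ms4a1, Cr2, Fcer2a, Cd22 and Pax5), at 2.40% of all genes called lower, while the 3 WT calls were kept. The WT call of Ms4a1 was also lost in edgeR on the 2 groups compared.

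Cd22 and Pax5 passed the test in HIF2α AKO mice and not in WT mice, and the difference between genotypes was not called for any gene. Cd22 stood at 401, 504 and 279.8 CPM in TN WT, 311, 284 and 152 in cold WT, 494, 327 and 405 in TN HIF2α AKO and 177, 259 and 226 CPM in cold HIF2α AKO mice, and cold and TN mice overlapped in WT and not in HIF2α AKO mice. For Cd22 the cold response was -0.66 ± 0.29 on the log2 scale in WT (SE, adjusted p = 0.114) and -0.89 ± 0.29 in HIF2α AKO mice (adjusted p = 0.0430). Pax5, the transcription factor that fixes B cell identity, stood at 40.4, 54.4 and 32.2 CPM in TN WT, 29.9, 31.3 and 16.8 in cold WT, 50.2, 32.8 and 41.2 in TN HIF2α AKO and 18.9, 27.6 and 24.2 CPM in cold HIF2α AKO mice, without overlap in either genotype. For Pax5 the cold response was -0.71 ± 0.26 on the log2 scale in WT (SE, adjusted p = 0.0765) and -0.81 ± 0.26 in HIF2α AKO mice (adjusted p = 0.0433). Both calls were close to the limit, and both were lost without the 3 libraries with epithelial or muscle transcripts and without the filter on low counts. Of the 12 fits that each left out 1 library, the call of Cd22 held in 5 (without TN WT replicate 2 or 3, TN HIF2α AKO replicate 2, or cold WT replicate 1 or 3) and that of Pax5 in the same ones other than cold WT replicate 1. Cd79a and Cd79b, the highest B cell genes per kilobase, did not pass in either genotype. Cd79a stood at 296, 360.1 and 236 CPM in TN WT, 217, 219 and 124 in cold WT, 379, 236 and 297 in TN HIF2α AKO and 134, 216 and 191 CPM in cold HIF2α AKO mice, with cold below TN in both, and its log2 fold changes were -0.67 ± 0.27 (adjusted p = 0.0907) and -0.75 ± 0.27 (adjusted p = 0.0562). Cd79b stood at 239, 314 and 182 CPM in TN WT, 192, 179 and 86.8 in cold WT, 331, 181 and 232 in TN HIF2α AKO and 106, 155 and 145 CPM in cold HIF2α AKO mice, where WT mice overlapped, with -0.68 ± 0.32 (adjusted p = 0.137) and -0.87 ± 0.32 (adjusted p = 0.0632). Blk, a kinase of the B cell receptor pathway, had -0.79 ± 0.30 and -0.83 ± 0.30 (adjusted p = 0.0773 and 0.0576).

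Ltb, whose product maintains lymph node stroma, had a fitted change between the T and B cell medians in both genotypes. It stood at 161, 179.9 and 148 CPM in TN WT, 107, 130.3 and 67.4 in cold WT, 189, 111 and 160.0 in TN HIF2α AKO and 70.5, 95.3 and 115 CPM in cold HIF2α AKO mice, with no overlap in WT and overlap in HIF2α AKO mice. For Ltb the cold response was -0.68 ± 0.26 on the log2 scale in WT (SE, adjusted p = 0.0803) and -0.71 ± 0.26 in HIF2α AKO mice (adjusted p = 0.0626).

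**Figure D4:**
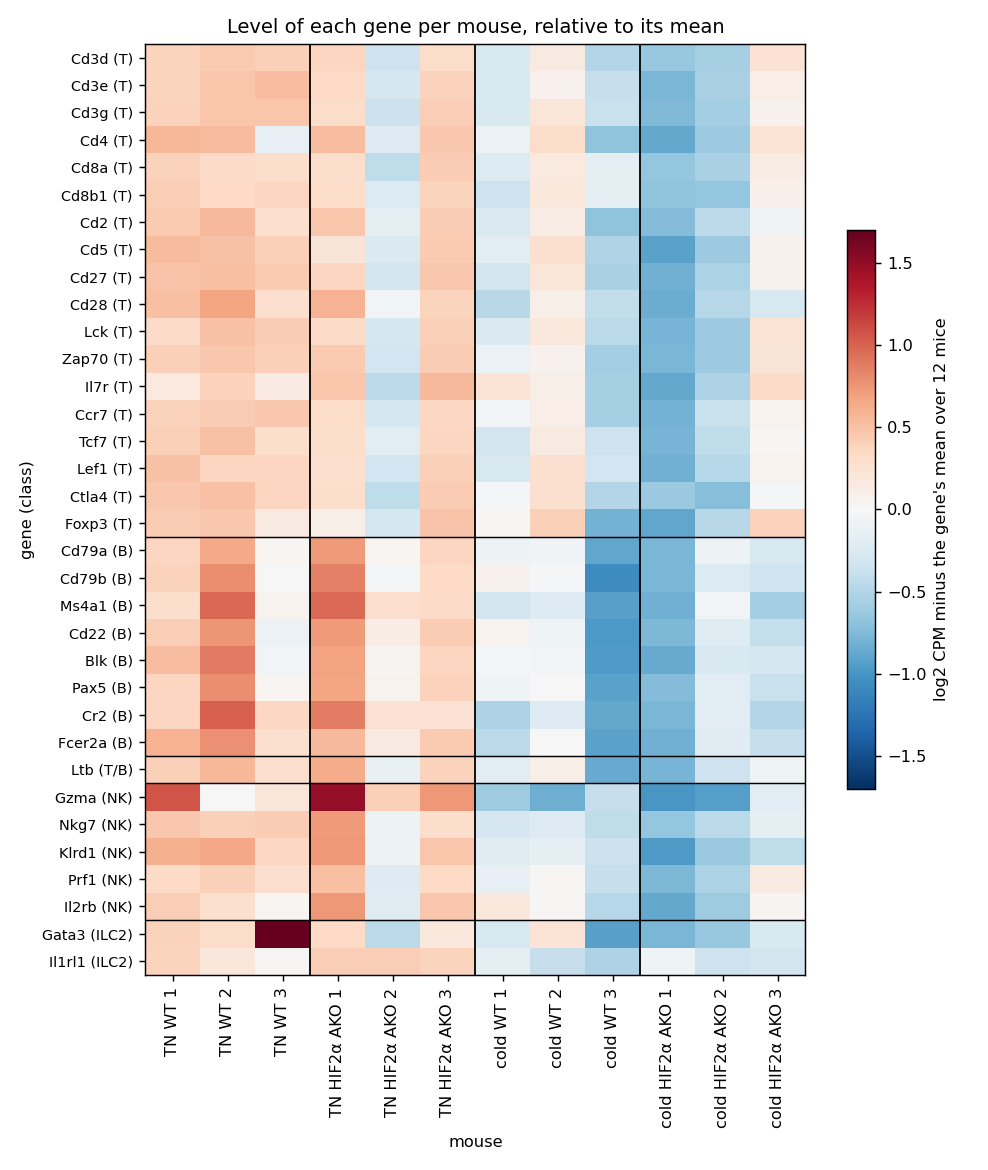
Log2 CPM of each of the 34 tested genes in each of the 12 mice, as the difference from the gene's mean over all mice (colour scale in log2 units), with genes ordered by class and mice by group. TN HIF2α AKO replicate 2 is pale or low across T cell genes within its group, cold HIF2α AKO replicate 3 is high there within its group, and Gata3 is highest in TN WT replicate 3.

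Of the 5 NK genes, 3 fell in both genotypes, where 5.68% (WT) and 11.5% (HIF2α AKO) of all genes tested were called lower. Gzma, which encodes granzyme A, stood at 11.3, 5.38 and 6.21 CPM in TN WT, 3.53, 3.03 and 4.10 in cold WT, 15.1, 7.13 and 8.94 in TN HIF2α AKO and 2.71, 2.81 and 4.77 CPM in cold HIF2α AKO mice. Every cold mouse lay below every TN mouse of its genotype, and TN replicate 1 was the highest mouse in both genotypes. Its level was 2.14-fold lower in WT (-1.10 ± 0.36, adjusted p = 0.0495) and 3.02-fold lower in HIF2α AKO mice (-1.59 ± 0.36, adjusted p = 0.0104). Klrd1, which encodes the CD94 chain of NK receptors, stood at 14.6, 15.2 and 12.3 CPM in TN WT, 8.37, 8.67 and 7.48 in cold WT, 16.0, 9.04 and 13.4 in TN HIF2α AKO and 4.94, 6.19 and 7.09 CPM in cold HIF2α AKO mice. It was 1.72-fold lower in WT (-0.78 ± 0.20, adjusted p = 0.0218) and 2.10-fold lower in HIF2α AKO mice (-1.07 ± 0.21, adjusted p = 0.00483), and the latter call held in 20 of 20 alternatives. Nkg7 stood at 23.2, 22.3 and 22.7 CPM in TN WT, 13.8, 14.5 and 12.5 in cold WT, 27.9, 15.8 and 20.6 in TN HIF2α AKO and 10.7, 12.3 and 14.98 CPM in cold HIF2α AKO mice. It was 1.67-fold lower in WT (adjusted p = 0.0189) and 1.69-fold lower in HIF2α AKO mice (adjusted p = 0.0151). In WT mice the call of Gzma held in 4 of the 12 fits that each left out 1 library (without TN WT replicate 3, TN HIF2α AKO replicate 1 or 2, or cold HIF2α AKO replicate 3) and was lost in edgeR on the 2 groups compared. The WT call of Klrd1 was lost without TN WT replicate 1 or 2 or cold WT replicate 1 or 3, and that of Nkg7 without TN WT replicate 1 or 2 or cold WT replicate 3. The HIF2α AKO calls of Gzma and Nkg7 were lost without cold replicate 1, and that of Nkg7 also without TN replicate 1. Without the 3 libraries with epithelial or muscle transcripts the calls of Gzma, Klrd1 and Nkg7 were kept in both genotypes.

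Il2rb and Prf1 were not called in either genotype. Il2rb, a receptor chain for interleukins 2 and 15 that NK and T cells share, stood at 90.5, 82.1 and 69.2 CPM in TN WT, 76.9, 69.1 and 48.4 in cold WT, 113, 59.0 and 92.9 in TN HIF2α AKO and 37.2, 44.7 and 70.1 CPM in cold HIF2α AKO mice, and the groups overlapped in both genotypes. For Il2rb the cold response was -0.31 ± 0.28 on the log2 scale in WT (SE, adjusted p = 0.408) and -0.80 ± 0.28 in HIF2α AKO mice (adjusted p = 0.0534). Prf1, which encodes perforin, had -0.50 ± 0.24 and -0.56 ± 0.24 (adjusted p = 0.142 and 0.0994). Gzma, Nkg7 and Prf1 are also made by cytotoxic T cells, so a change in them is not particular to NK cells.

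Il1rl1, the receptor through which ILC2s respond to interleukin 33, fell upon cold in both genotypes. It stood at 10.8, 9.42 and 8.36 CPM in TN WT, 7.38, 6.32 and 5.75 in cold WT, 11.1, 11.1 and 10.8 in TN HIF2α AKO and 7.89, 6.47 and 6.69 CPM in cold HIF2α AKO mice, with cold mice below TN mice in either genotype and the smallest standard errors of the set. Its level was 1.47-fold lower in WT (-0.55 ± 0.14, adjusted p = 0.0201) and 1.56-fold lower in HIF2α AKO mice (-0.65 ± 0.14, adjusted p = 0.00901). In HIF2α AKO mice it was called in 20 of 20 alternatives, with the highest adjusted p at 0.0347, and in WT mice in 16 of 20, with the call lost without TN WT replicate 1 or 2 or cold WT replicate 3 and in edgeR on the 2 groups compared. Mast cells and regulatory T cells carry this receptor as well, and the 7 mast cell genes summed to 178 ± 26.9 CPM in TN WT, 145 ± 16.2 in cold WT, 203 ± 21.9 in TN HIF2α AKO and 129.6 ± 20.7 in cold HIF2α AKO mice. Their part in the fall of Il1rl1 was not tested.

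Gata3 had the largest fitted change of the set in WT mice, and 1 library decided its size. It stood at 10.4, 9.90 and 29.3 CPM in TN WT, 6.58, 9.35 and 4.18 in cold WT, 10.0, 5.78 and 9.01 in TN HIF2α AKO and 4.65, 5.10 and 6.65 CPM in cold HIF2α AKO mice. TN WT replicate 3, the library with 199.98 CPM of epithelial transcripts, was 29.3 CPM against at most 10.4 CPM in the other 11. Its log2 fold change was -1.30 ± 0.43 in WT (adjusted p = 0.0524) and -0.59 ± 0.43 in HIF2α AKO mice (adjusted p = 0.313). Over 20 alternatives the WT value ran from -1.64 to -0.60, the latter without TN WT replicate 3, and its adjusted p from 0.0122 to 0.184. Gata3 is also a factor of luminal mammary epithelium, and the part of epithelial RNA in its level was not tested.

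Further genes of the same cells were listed apart from the 35, and their calls were not examined in the alternative fits. Of 18 further T cell genes tested, all had negative fitted changes in both genotypes, with medians of -0.56 in WT and -0.53 in HIF2α AKO mice. The test called 1 lower in WT mice, Themis, a regulator of T cell receptor signalling (-0.77 ± 0.22, adjusted p = 0.0329). It called 0 in HIF2α AKO mice, with 8 at an unadjusted p under 0.05. Beside 5.68% and 11.5% of all genes tested, neither count stood above the background. The highest of the list were Ets1, Thy1 and Grap2, and Ets1 is broadly expressed. Their log2 fold changes in WT mice included -0.44 ± 0.18 for Ets1 (adjusted p = 0.0991) and -0.37 ± 0.22 for Thy1 (adjusted p = 0.231). The constant segments of the T cell receptor and of immunoglobulins were not analysed here.

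Of 18 further B cell genes tested, all were fitted lower, with medians of -0.71 in WT and -0.88 in HIF2α AKO mice. In WT mice 1 was called, Bank1, a B cell scaffold protein (-0.82 ± 0.25, adjusted p = 0.0409), with 13 at an unadjusted p under 0.05. Beside 5.68% of all genes tested, the 1 call in WT mice did not stand above the background. Against 11.5% of all genes tested, the test called 11 of the 18 in HIF2α AKO mice. Among them were Fcmr, the IgM receptor (-0.97 ± 0.24, adjusted p = 0.0147), H2-Ob, a chain of the peptide-loading regulator of B cells (-1.05 ± 0.31, adjusted p = 0.0306), and Cxcr5, the receptor for Cxcl13 (-0.84 ± 0.25, adjusted p = 0.0335). The further B cell genes summed to 2152 ± 618 CPM in TN WT, 1307 ± 387 in cold WT, 2185 ± 496 in TN HIF2α AKO and 1186 ± 243 CPM in cold HIF2α AKO mice, and cold and TN mice did not overlap in either genotype. Among the highest were Cd37 and H2-Ob. The calls on this list were not examined without the 3 libraries with epithelial or muscle transcripts. In that fit 2.40% of all genes were called lower in HIF2α AKO mice.

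Of 13 further NK genes tested, all were fitted lower, with medians of -0.76 and -1.02. Beside 5.68% and 11.5% of all genes tested, 6 were called in WT and 9 in HIF2α AKO mice. Ncr1, which encodes the NK receptor NKp46, fell in both (-0.81 ± 0.24, adjusted p = 0.0347, and -1.02 ± 0.24, adjusted p = 0.0132). So did Klrb1c, the NK1.1 antigen of C57BL/6 mice (-0.97 ± 0.26, adjusted p = 0.0233, and -1.04 ± 0.26, adjusted p = 0.0158), Klrc1, Klre1, Klrk1 and Fasl. Gzmb, Eomes and Cd7 fell in HIF2α AKO mice, at -1.11 ± 0.30, -1.03 ± 0.26 and -0.78 ± 0.20 (adjusted p = 0.0211, 0.0174 and 0.0178), and the difference from WT was not called. Klrc1 and Klrc2 are close paralogs, and Klra8, of another multigene family, had 0 counts in all libraries. The highest were Ccl5, Klrk1 and Cd7, and Ccl5, a chemokine of activated T and NK cells, had -0.71 ± 0.43 in WT (adjusted p = 0.232).

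ILC2 cytokines were scarce. Il5 had 12, 2 and 3 counts in TN WT, 0, 7 and 5 in cold WT, 8, 3 and 5 in TN HIF2α AKO and 2, 5 and 2 in cold HIF2α AKO mice. Il13 ranged from 0 to 7 and Il4 from 1 to 14 counts, so differences in these cytokines were not detectable at this depth. Of 9 further ILC2 genes tested, 6 were fitted lower and 3 higher in WT mice. HIF2α AKO mice had 7 lower and 2 higher. Klrg1, an inhibitory receptor of ILC2s, NK and T cells, fell in WT mice (-1.22 ± 0.30, adjusted p = 0.0166), as did Penk, which encodes proenkephalin (-0.93 ± 0.25, adjusted p = 0.0260). Across all genes tested, 5.68% were called lower in WT mice. In HIF2α AKO mice 0 of the 9 were called lower, beside 11.5% of all genes tested. Hlf, a transcription factor with expression far beyond ILC2s, rose in both genotypes (2.18 ± 0.35, adjusted p = 0.00238, and 2.16 ± 0.35, adjusted p = 0.00178). The list summed to 82.0 ± 6.86 CPM in TN WT, 77.0 ± 15.1 in cold WT, 68.9 ± 4.69 in TN HIF2α AKO and 76.6 ± 5.31 CPM in cold HIF2α AKO mice, with overlap between cold and TN. Its highest genes were Il2ra, Il9r and Hlf.

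Ligands and receptor chains that act on ILC2s were listed too. Il33, which encodes interleukin 33, stood at 38.9, 48.3 and 24.6 CPM in TN WT, 33.3, 24.7 and 15.6 in cold WT, 42.1, 38.6 and 32.3 in TN HIF2α AKO and 18.8, 37.9 and 32.1 CPM in cold HIF2α AKO mice, with -0.60 ± 0.32 in WT (adjusted p = 0.184) and -0.34 ± 0.32 in HIF2α AKO mice (adjusted p = 0.431). Il1rap, the co-receptor that pairs with ST2, fell in both genotypes (-0.52 ± 0.15, adjusted p = 0.0322, and -0.56 ± 0.15, adjusted p = 0.0216). The shares of all genes tested that were called lower were 5.68% and 11.5%. Il25 had 0 to 5 counts and Il2 had 0 to 12. The other 6 genes tested were fitted lower in both genotypes and were not called. The highest were Il4ra, Il33 and Crlf2.

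Markers of other cells moved with the cold response in part. Ptprc, the leukocyte antigen CD45, stood at 792 ± 162 CPM in TN WT, 502 ± 119 in cold WT, 741 ± 124 in TN HIF2α AKO and 448 ± 118 CPM in cold HIF2α AKO mice, and cold lay below TN in both genotypes. Adipocyte genes, led by Cfd, Fabp4 and Pnpla2, summed to 18059 ± 5862 CPM in TN WT, 33765 ± 10175 in cold WT, 21156 ± 5932 in TN HIF2α AKO and 30979 ± 2179 CPM in cold HIF2α AKO mice. Of these genes, 3 of 8 rose in WT and 2 of 8 in HIF2α AKO mice. Out of 15306 genes tested, 2389 were called higher in WT and 2381 in HIF2α AKO mice. The 5 beige genes rose in both genotypes and summed to 3237 to 8327 CPM in cold mice, against 11.6 to 58.8 CPM at TN. Endothelial genes, led by Pecam1, Cdh5 and Kdr, summed to 776 to 1032 CPM, with cold mice above TN mice in both genotypes and 0 of 6 called in either (0 and 1 at an unadjusted p under 0.05). The macrophage list, led by Lyz2, Csf1r and C1qb, summed to 2407 ± 697 CPM in TN WT, 2084 ± 678 in cold WT, 2678 ± 102 in TN HIF2α AKO and 1611 ± 105 CPM in cold HIF2α AKO mice, and 0 of 9 were called in WT and 2 of 9, Mrc1 and C1qa, fell in HIF2α AKO mice. Lower calls made up 5.68% of all genes tested in WT and 11.5% in HIF2α AKO mice. In WT mice 0 of the 9 macrophage genes had an unadjusted p under 0.05, and their median was -0.04. In HIF2α AKO mice 9 of 9 were fitted lower with a median of -0.68, beside -0.61 for the lymphocyte genes, with 6 at an unadjusted p under 0.05 and 8 without overlap.

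Among the remaining lists, mast cell genes (led by Mcpt4, Tpsb2 and Cpa3) included 0 of 7 called in WT, with 1 at an unadjusted p under 0.05, and 4 of 7 lower in HIF2α AKO mice, namely Cpa3, Cma1, Tpsb2 and Fcer1a. Across all genes tested, 5.68% in WT and 11.5% in HIF2α AKO mice were called lower. Dendritic cell genes (led by Siglech, Itgax and Flt3) included Cd209a, which fell in WT mice (-1.01 ± 0.17, adjusted p = 0.00295), and Siglech, a marker of plasmacytoid cells, which fell in HIF2α AKO mice (-0.97 ± 0.33, adjusted p = 0.0469). Progenitor genes (led by Dcn, Ly6a and Pi16) included 0 of 6 called in WT, with 2 at an unadjusted p under 0.05, and 3 lower in HIF2α AKO mice, namely Dpp4, Ly6a and Dcn. Muscle genes (led by Myh4, Acta1 and Tnnt3) included 0 of 10 called in either genotype, with 0 at an unadjusted p under 0.05, and epithelial genes (led by Cdh1, Epcam and Krt8) 1 of 6, Epcam, lower in WT mice, where TN WT replicate 3 stood apart. The part of these cells in the cold response of the lymphocyte genes was not tested.

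None of the 34 genes tested, nor any gene of the further lists, passed the test between libraries labelled HIF2α AKO and WT. At TN, 26 of 34 genes were fitted lower and 8 higher in HIF2α AKO than in WT mice, with a median of -0.16. The count called was 0, against 0.00653% of all genes tested, and DESeq2 and limma voom called 0 as well. At an unadjusted p under 0.05 edgeR had 1, Gata3 (-0.999 ± 0.42, adjusted p = 0.999), whose WT mean rested on TN WT replicate 3. Cd3d (-0.27 ± 0.26) and Ccr7 (-0.27 ± 0.24) were lower in every TN HIF2α AKO mouse than in every TN WT mouse, whereas 4.00% of all genes tested had no overlap in that direction. Il1rl1 (0.20 ± 0.14) was higher without overlap, beside 3.69% of all genes tested. Without TN HIF2α AKO replicate 2, the library with the highest muscle transcripts, 16 of 34 were fitted lower and the median was 0.02.

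Upon cold, 31 of 34 genes were fitted lower in HIF2α AKO than in WT mice, with a median of -0.17. The count called was again 0, beside 0.00653% of all genes tested, with 0 at an unadjusted p under 0.05, and DESeq2 and limma voom called 0 too. Klrd1 (-0.43 ± 0.21, adjusted p = 0.9998) was the 1 gene lower without overlap, against 3.73% of all genes tested, and 0 were higher without overlap, against 3.80%. The direction depended on single libraries. Without cold HIF2α AKO replicate 1, 19 of 34 were fitted lower, and without cold WT replicate 2, 17 of 34, with medians of -0.00477 and 0.00227. Without cold HIF2α AKO replicate 3 the median was -0.45, with 11 genes at an unadjusted p under 0.05 and 0 called. At 3 mice per group and the spread seen here, differences of this size were not detectable, and the values do not show that the genotypes are alike.

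The interaction of genotype and temperature, which tests whether the cold response differed between genotypes, called 0 of 34 genes, as it called 0% of all genes tested. At an unadjusted p under 0.05 there were 0, and DESeq2 and limma voom gave 0 calls. Fitted interaction values were higher for 13 and lower for 21 genes, with a median of -0.04 and a range from -0.49 to 0.71. Standard errors lay between 0.20 and 0.61.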

How the data were processed

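Per the methods and the submitters' processing notes, the authors trimmed reads with Trim Galore 0.4.4, aligned them with STAR 2.6.1d to GRCm38 and counted them with HTSeq 0.13.5, and listed DESeq2 1.30.0. The deposited values are whole read counts per gene without normalization, and the table of the series equalled the files of the 12 samples. Tallies of reads outside genes, 21.9 to 27.0% of the reads listed, were left out. The annotation and strand setting are not given in the sources used here. Groups came from the sample titles. In R 4.3.3, edgeR 4.0.16 fitted all 12 libraries as 4 groups (TMM, filterByExpr with a minimum count of 10 and total of 15, quasi-likelihood, Benjamini-Hochberg over 15306 genes). The biological coefficient of variation was 0.202. The scripts were tested on simulated data. Replicates are separate mice with 1 library each, and p-values measure the spread between them. Zero counts were read against a floor of 3 counts, which covers counting error only. Same-numbered replicates were correlated (5 of 18 pairs above 0.1) without differently numbered pairs beside them, which cannot decide whether the numbers mark pairs. The 35 genes and all lists were chosen with earlier results of these data known. Values per library are given for the highest members of each class, lineage-defining genes, every gene called, and the genes without overlap that had the largest fold changes. For most of the other lists the 3 highest genes and up to 5 called genes are named. Levels between genes used exon lengths from a GRCm38 annotation. Alternatives were DESeq2 1.42.0 and limma 3.58.1 (voom), other scaling, no filter, the replicate block, 2-group fits, and leaving out libraries. The alternative without 3 libraries, and class sums without each library, were chosen after seeing the data. Some genes of the lists are not reported here.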

Additional observations from a re-analysis of the deposited data

How the results depend on the processing

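The direction upon cold, lower in 34 of 34 tested genes, was kept in each of 20 alternatives in both genotypes, while the number called was not. Against 8 in WT and 10 in HIF2α AKO mice, DESeq2 on all 12 libraries called 17 and 16, DESeq2 on the 2 groups compared 24 and 16, edgeR on the 2 groups 6 and 13, and limma voom with quality weights 13 and 30. The shares of all genes called lower moved too, from 5.68% and 11.5% to 11.9% and 15.4%, 8.12% and 16.2%, 1.90% and 11.7%, 10.5% and 19.1%, in that order. DESeq2 size factors gave 9 and 10, no filter 9 and 8, and omission of the 3 libraries with epithelial or muscle transcripts 13 and 5. Leaving out 1 library at a time gave 0 to 12 in WT and 2 to 25 in HIF2α AKO mice. With the replicate number as a block the counts were 7 and 10, and 0 for both genotype contrasts and the interaction, and Cd28 was the call lost in WT mice. Deviations of same-numbered libraries correlated between -0.43 and 0.39. Libraries of different numbers were not compared, so this check cannot decide whether the numbers mark pairs. Genotype contrasts and the interaction gave 0 calls in every alternative run. Without a filter Areg was also tested, and it was the 1 gene of 35 fitted higher upon cold in HIF2α AKO mice. CPM without TMM moved every gene upon cold by -0.30 in WT and -0.27 in HIF2α AKO mice (log2), and with it the summed T and NK levels in WT mice (-0.85 and -0.78, from -0.55 and -0.48) and the summed ILC2 level in HIF2α AKO mice (-0.89, from -0.62). As a mean of centred log2 CPM the last was -0.38. Without the 3 libraries the ILC2 difference between genotypes at TN was 0.0129, from -0.38. Of 1460 values of single genes under an alternative, 122 became calls, 71 lost a call and 0 reversed. The cause of these moves was not tested. With 3 mice per group, small differences were not detectable.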

Other observations

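Genes of germinal centres, the sites in lymph node follicles where activated B cells mutate their antibody genes, were high in the same 2 libraries, TN WT replicate 2 and TN HIF2α AKO replicate 1. Mybl1 stood at 19.4 and 12.2 CPM in them against 1.45 to 3.50 CPM in the other 10 mice, Gcsam at 18.8 and 12.3 against 2.93 to 6.45 CPM, and Rgs13 at 3.94 and 4.48 against 0.0402 to 1.15 CPM. These are also the libraries with the highest B cell sums, 2028 and 1977 CPM. Their B-to-T ratios were the highest at TN within their groups, although TN HIF2α AKO replicate 2 had 1.493 beside 1.495 in replicate 1. Bcl6 and Fas, of the same list, are not particular to B cells, and the list summed to 145 ± 44.3 CPM in TN WT, 182 ± 24.1 in cold WT, 149 ± 12.4 in TN HIF2α AKO and 166 ± 48.3 CPM in cold HIF2α AKO mice (SD, n = 3). Of its 7 genes, S1pr2, a receptor that keeps B cells in germinal centres, fell upon cold in HIF2α AKO mice (-0.91 ± 0.25, adjusted p = 0.0238, edgeR), beside 11.5% of all genes tested. In WT mice 0 of its genes were called, with 1 higher and 1 lower at an unadjusted p under 0.05. These genes were singled out after their values were seen.

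Plasma cell genes spread more widely between mice than any class of the set. The 6 genes of this list summed to 435, 861 and 109 CPM in TN WT, 1121, 801 and 744 in TN HIF2α AKO, 260.1, 581 and 556 in cold WT and 352, 336 and 419 CPM in cold HIF2α AKO mice. Jchain, which joins IgA and IgM, ranged from 31.0 CPM in TN WT replicate 3 to 899 CPM in TN HIF2α AKO replicate 1. Cold and TN mice overlapped in WT and not in HIF2α AKO mice, where Mzb1, a chaperone of antibody-secreting cells, fell (-1.53 ± 0.51, adjusted p = 0.0464, edgeR). It was the 1 of 6 called there, beside 11.5% of all genes tested called lower. In WT mice 0 of 6 were called, with 0 at an unadjusted p under 0.05.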
